A study of Mus musculus with 2 samples.

Results

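The genes described here code for the subunits of potassium channels, the membrane pores that let potassium leave or enter a cell. They were chosen by name alone, as probe sets whose platform annotation gives a single symbol that starts with Kcn and carries a family letter code and a number. The rule matched 94 probe sets of 91 genes among 19938 genes on the array. Of these, 3 (Kcnd3os, Kcnmb4os1 and Kcnmb4os2) are noncoding genes that overlap or neighbour a channel gene, which left 88 subunit genes. The 88 comprised 35 pore subunits of voltage-gated channels, 12 of their auxiliary subunits, 15 inward rectifiers (Kcnj), 14 two-pore channels (Kcnk), 9 subunits of calcium-activated channels and 3 related channels opened by sodium or pH (Kcnt1, Kcnt2 and Kcnu1). Not every member of these families was analysed here.

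The cells were neural precursor cells from the forebrain of Jcl:ICR mouse embryos at stage E11.5, grown with FGF2 and EGF, the mitogens that keep precursors dividing. They received either a retrovirus carrying HMGN1, a nucleosome-binding chromatin protein, or a control retrovirus. Cells of both groups were replated 3 days after infection and spent 1 day without either mitogen before total RNA was taken for 1-colour arrays. Each virus has 1 array, so no value below has a replicate, no test between the viruses was possible and each difference describes these 2 RNA samples only. The promoter and the share of cells that carried each virus are not given in the sources used here.

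Potassium channels set the resting potential of a cell and end its electrical signals. Precursor and glial cells rest on leak and inwardly rectifying channels, and neurons add voltage-gated and calcium-activated channels as they mature. A voltage-gated channel assembles several pore subunits around a central path and often carries auxiliary subunits that change its speed or its passage to the membrane. Two-pore channels conduct at rest, inward rectifiers pass potassium into the cell more easily than out, and calcium-activated channels couple potassium flow to calcium signals.

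Before the values, the promoters of 6 members are shown, because promoter base composition differed between members measured above background and those below it. They are the voltage-gated genes Kcnd2 and Kcna2, which had bright probe sets, the members with the highest and the lowest difference between the viruses among those above background (Kcnn3 and Kcnk12), and the related inward rectifiers Kcnj10 and Kcnj15, of which the first was above background and the other was not. The last pair is an example only, and some other inward rectifiers below background had promoters richer in CG than that of Kcnj10. Each sequence runs 5′ to 3′ along the gene, from 250 bases before to 50 bases after the annotated start, and comes from RefSeq on build GRCm38.p6. Capitals mark CG dinucleotides, the sites of DNA methylation in vertebrates.
Kcnd2 (26 CG; chr6:21215096-21215395, plus strand): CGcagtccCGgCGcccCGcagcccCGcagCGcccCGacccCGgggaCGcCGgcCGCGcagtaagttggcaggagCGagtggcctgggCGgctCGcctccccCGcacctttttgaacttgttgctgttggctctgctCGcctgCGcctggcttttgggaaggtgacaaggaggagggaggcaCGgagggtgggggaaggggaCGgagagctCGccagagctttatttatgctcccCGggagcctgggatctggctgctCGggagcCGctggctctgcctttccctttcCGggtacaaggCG
Kcna2 (31 CG; chr3:107101317-107101616, plus strand): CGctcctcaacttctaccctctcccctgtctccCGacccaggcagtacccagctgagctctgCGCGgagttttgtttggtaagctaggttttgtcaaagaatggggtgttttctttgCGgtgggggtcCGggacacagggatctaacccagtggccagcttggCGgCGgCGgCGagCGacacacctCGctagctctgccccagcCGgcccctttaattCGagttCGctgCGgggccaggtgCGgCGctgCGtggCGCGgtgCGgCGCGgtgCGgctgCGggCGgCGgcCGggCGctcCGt
Kcnn3 (11 CG; chr3:89519914-89520213, plus strand): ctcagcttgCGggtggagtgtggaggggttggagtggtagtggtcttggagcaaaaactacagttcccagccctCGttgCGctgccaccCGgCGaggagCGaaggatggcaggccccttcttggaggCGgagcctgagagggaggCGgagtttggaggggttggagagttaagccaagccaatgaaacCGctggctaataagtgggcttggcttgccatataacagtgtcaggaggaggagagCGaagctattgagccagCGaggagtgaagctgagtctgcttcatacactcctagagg
Kcnk12 (20 CG; chr17:87797945-87798244, minus strand): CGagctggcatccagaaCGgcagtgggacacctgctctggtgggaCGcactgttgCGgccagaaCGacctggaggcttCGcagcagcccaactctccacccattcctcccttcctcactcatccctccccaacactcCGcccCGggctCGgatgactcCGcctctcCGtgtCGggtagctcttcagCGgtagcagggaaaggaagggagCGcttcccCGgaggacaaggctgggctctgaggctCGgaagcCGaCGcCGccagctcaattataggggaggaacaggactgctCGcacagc
Kcnj10 (21 CG; chr1:172340960-172341259, plus strand): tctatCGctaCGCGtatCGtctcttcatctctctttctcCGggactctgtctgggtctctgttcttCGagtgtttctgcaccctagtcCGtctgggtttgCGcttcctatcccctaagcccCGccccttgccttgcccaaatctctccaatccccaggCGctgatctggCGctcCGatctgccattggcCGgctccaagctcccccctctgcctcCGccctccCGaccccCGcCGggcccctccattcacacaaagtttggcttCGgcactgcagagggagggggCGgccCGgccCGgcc
Kcnj15 (2 CG; chr16:95257308-95257607, plus strand): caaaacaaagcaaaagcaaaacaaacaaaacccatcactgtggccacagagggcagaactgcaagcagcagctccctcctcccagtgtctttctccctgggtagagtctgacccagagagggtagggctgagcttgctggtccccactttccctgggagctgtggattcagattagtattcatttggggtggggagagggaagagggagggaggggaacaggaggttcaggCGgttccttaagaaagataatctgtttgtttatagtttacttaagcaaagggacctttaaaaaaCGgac

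The summarised intensity of a probe set is its brightness on a linear scale. A gene was counted as detected when the mean intensity of its brightest probe set reached 85.95, the 95th percentile of 1035 probe sets of olfactory receptors, a family hardly used in these cells. Of the 88 potassium channel genes, 39 were detected (44.3%), beside 56.8% of all genes on the array. The detected share was 6 of 9 calcium-activated, 19 of 35 voltage-gated pore, 6 of 12 voltage-gated auxiliary, 6 of 14 two-pore, 2 of 15 inward rectifier and 0 of 3 sodium- or pH-activated genes. The members next to the floor were Kcne2 (mean intensity 86.4) just above it and Kcnk16 (82.8) just below. In 4 detected genes, Kcna1, Kcna10, Kcne2 and Kcnk12, only 1 of the 2 arrays reached the floor, so 35 members were above it on both. Intensities of different probe sets depend on their probes and do not rank one channel's RNA above another's.

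Promoter sequence differed between detected and undetected members. RefSeq promoters were found for 30 detected members (42 promoters) and 37 undetected ones (50 promoters), and some genes have several. The promoters of detected members held a median of 18 CG dinucleotides in 300 bases, against 6.5 in those of undetected members. A CG-rich promoter, here one with an observed to expected CG ratio of at least 0.6 and at least 55% G and C, was present in 19 of 42 promoters of detected members (45.2%) and in 6 of 50 of undetected members (12%). Over all genes on the array with a promoter the shares were 61.9% and 17.0%, so the members followed the same order as other genes. The counts are a description without a test, since promoters of 1 gene share their surroundings.

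A GGGCGG box on either strand, a motif that partly counts the same CG sites, was found in 25 of 42 promoters of detected members (59.5%) and in 19 of 50 of undetected members (38%). Over all genes the shares were 63.1% above the floor and 27.9% below it. The letters TATAAA on either strand occurred in 0 of 42 promoters of detected members and in 5 of 50 of undetected members (10.0%). Over all genes the shares were 6.99% above the floor and 18.4% below it, in the same order as among the members, and the pooled shares of all promoters were 49.3% for GGGCGG and 11.49% for TATAAA. Inward rectifiers accounted for 4 of the 5 members with TATAAA, in 4 of their 17 promoters (23.5%). All of these genes were below the floor, where the share over all genes was 18.4%. A match describes letters only and names no bound factor. Exceptions to the CG pattern ran both ways: the promoter of Kcna10, detected near the floor, held 0 CG, and that of Kcng3, a silent modifier subunit below the floor, held 49. Among inward rectifiers below the floor, the promoter of Kcnj4 held 41 CG and a promoter of Kcnj6 held 30, against 21 in that of detected Kcnj10.

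**Figure D1:**
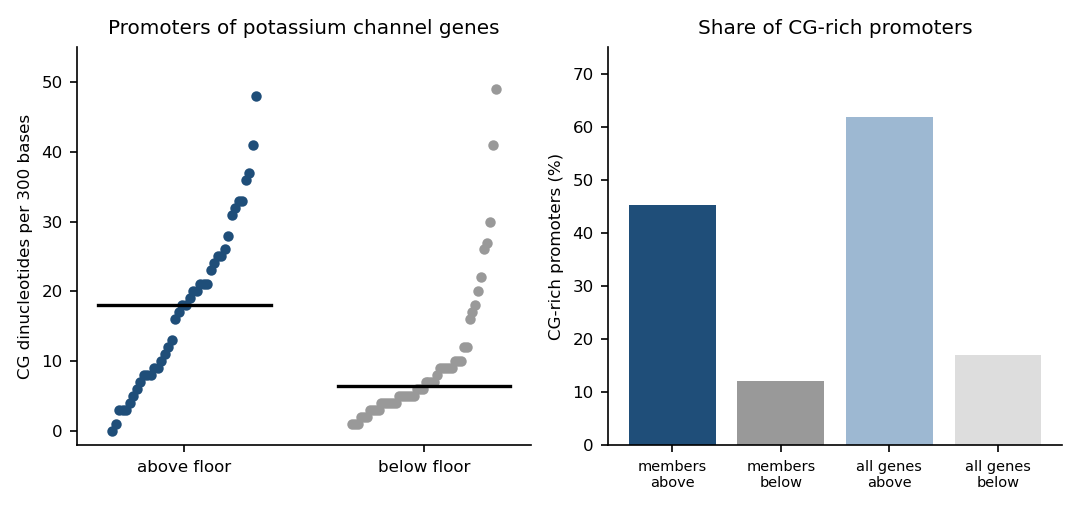
Left, CG dinucleotides in each 300-base promoter of potassium channel genes above and below the detection floor (points, promoters; bar, median). Right, the percentage of promoters that are CG-rich among members and all genes. Medians were 18 above the floor and 6.5 below it, and the share of CG-rich promoters was higher above the floor for members and for all genes.

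The comparison of the viruses asks how extra HMGN1 alters RNA levels as precursors leave the mitogens. Hmgn1 had an intensity of 348 in the HMGN1 virus sample and 230 in the control virus sample, a difference of 0.57. All differences are HMGN1 virus minus control virus on the log2(intensity + 16) scale, where the offset compresses the changes of dim genes. As a measure of scatter, different probe sets of 1 gene had differences that spread by 0.0891 (SD, 683 genes), which leaves out variation between cultures. This SD pools probe sets of any intensity above the floor. The whole set of detected genes had a median difference of 0.027 and an SD of 0.11.

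As a set, the potassium channel genes stood close to their control values. Of the 39 detected, 17 were higher in the HMGN1 virus sample, 21 were lower and Kcng1 had the same value in both, with a median of -0.0083 and an SD of 0.11. Among all detected genes 60.1% were higher and 38.4% lower. The size used to count genes was a log2 difference of 0.32 either way. No member reached it: the count was 0 of 39 higher, where 0.512% of all detected genes were, and 0 of 39 lower, where 0.521% were. At 1.5-fold the counts were 0 of 39 both ways, beside 0% of all detected genes higher and 0.0706% lower. At a smaller size of 0.20, 1 member was higher (Kcnn3), beside 4.25% of all detected genes, and 2 were lower (Kcnv1, and Kcnk12, whose mean passed the floor through the control virus array only), beside 2.71%. Differences beyond the SD between probe sets were seen in 10 higher members (25.6%, all detected genes 26.9%) and in 9 lower ones (23.1%, all detected genes 14.1%). Over the 35 members above the floor on both arrays, 16 were higher and 18 lower, with a median of -0.0060. The balance depended on the dimmer members: with the floor at the 99th percentile of olfactory receptors, 22 members remained, of which 13 were higher and 8 lower, with a median of 0.037 beside 0.032 for all genes above that floor. Scaling also moved the background, since centring on the median gave 50% of all detected genes higher and 15 of 39 members.

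**Figure D2:**
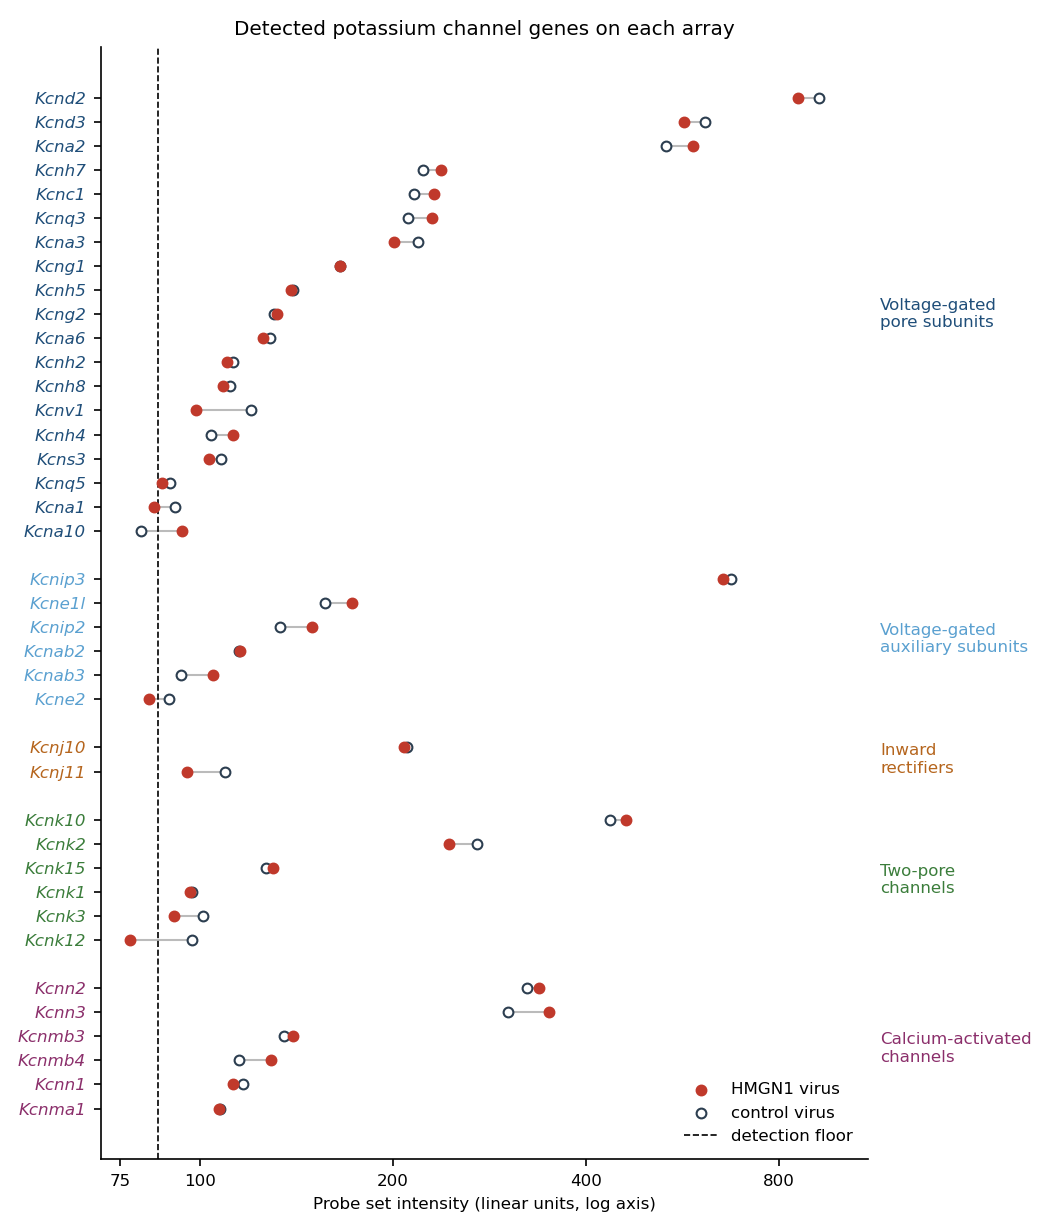
Intensity (log axis) of the 39 detected potassium channel genes in the HMGN1 virus sample (filled) and the control virus sample (open), grouped by channel class and sorted by mean intensity, with 1 array per virus. The dashed line is the detection floor of 85.95. The points of most genes lie close together, with the wider gaps at Kcnk12, Kcnv1 and Kcnn3.

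The voltage-gated pore subunits had 7 detected genes higher, 11 lower and 1 equal, beside 60.1% higher and 38.4% lower among all detected genes. Their median was -0.029, and 0 over the 11 genes above the higher floor. The transient A-type channel genes Kcnd2 and Kcnd3, whose products open and inactivate quickly below threshold in neuronal dendrites, were both lower. Kcnd2 had an intensity of 855 in the HMGN1 virus sample and 925 in the control virus sample, a difference of -0.11. Kcnd3 stood at 568 with the HMGN1 virus and 612 with the control virus, a difference of -0.10. Both differences are slightly larger than the scatter between probe sets. The third gene of the family, Kcnd1, had a mean under the floor (78.0 with the HMGN1 virus and 87.2 with the control virus).

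Genes of the Kcna family, which make delayed rectifier and axonal channels, went both ways. Kcna2, an axonal subunit, had 588 in the HMGN1 virus sample and 534 in the control virus sample, a difference of 0.13. Its second probe set, at 136 with the HMGN1 virus and 135 with the control virus, differed by 0.0083, so its probe sets did not give the same difference. Kcna3, well known from T cells and microglia, had 201 with the HMGN1 virus and 219 with the control virus (-0.12), Kcna6 differed by -0.034 and Kcna1 by -0.091. Kcna10 (93.6 with the HMGN1 virus and 81.0 with the control virus, 0.18) was above the floor only through the HMGN1 virus array. Kcna3, Kcna2 and Kcna10 lie next to each other on chromosome 3, and Kcna5, Kcna1 and Kcna6 on chromosome 6, in the RefSeq gene order. All 3 genes of the first cluster were detected, and in the other Kcna5 (29.0 with the HMGN1 virus and 28.5 with the control virus) was below the floor beside detected Kcna1 and Kcna6.

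Kcnq3, a subunit of the M-current that damps repetitive firing, had 230 in the HMGN1 virus sample and 211 in the control virus sample (0.11). Its partner Kcnq5 had 87.2 with the HMGN1 virus and 89.8 with the control virus (-0.035), and Kcnq1, a channel of heart and epithelia, was below the floor. Kcnc1, a fast channel of rapidly firing neurons, had 232 with the HMGN1 virus and 216 with the control virus (0.097).

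In the ether-à-go-go family (Kcnh), Kcnh7 had 237 in the HMGN1 virus sample and 222 in the control virus sample (0.087), and Kcnh4 had 112 with the HMGN1 virus and 104 with the control virus (0.098). Kcnh2, the pore of the cardiac repolarising channel, differed by -0.029, Kcnh5 by -0.0060 and Kcnh8 by -0.033. A second probe set of Kcnh8, just below the floor, gave 0.095. Kcnh3, with a mean below the floor, had 89.7 with the HMGN1 virus and 75.6 with the control virus (0.21). Of the 5 detected genes of the family, Kcnh4 alone went past the scatter between probe sets.

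Silent modifier subunits, which form no channel alone and alter those of other voltage-gated subunits, had 4 of 10 genes detected. Kcnv1 was the lowest voltage-gated gene, at 98.6 in the HMGN1 virus sample and 120 in the control virus sample. The difference was -0.25 or 2.8 times the scatter between probe sets. That scatter pools all intensities above the floor of 85.95, and Kcnv1 lay toward the dim end (mean 109). Kcns3 differed by -0.057 and Kcng2 by 0.013. Kcng1 read 165.6 on both arrays. Identical deposited numbers on both arrays occurred in 6 of the 88 members (6.82%), beside 2.52% of all genes. The others were Kcnf1, Kcnj2, Kcnj5, Kcnk7 and Kcnk16, which lay below the floor. Without these subunits the median of the pore subunits was again -0.029 (15 genes).

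Of the auxiliary subunits of voltage-gated channels, 4 detected genes were higher and 2 lower, a split near that of all detected genes (60.1% higher). Their median was 0.065, and 0.033 with the trend of difference on gene span removed. Kcnip3, a calcium-binding partner of the A-type channels that is also known as the transcriptional repressor DREAM, had 654 in the HMGN1 virus sample and 672 in the control virus sample (-0.039). Kcnip2, a related partner, had 150 with the HMGN1 virus and 133 with the control virus (0.15). Kcne1l, an X-linked single-pass subunit also named Kcne5, had 173 with the HMGN1 virus and 157 with the control virus (0.13). Of the subunits that bind Kcna channels in the cytoplasm, Kcnab3 had 105 with the HMGN1 virus and 93.5 with the control virus (0.14) and Kcnab2 differed by 0.0015. Kcne2, among the lower genes, had 83.4 with the HMGN1 virus and 89.4 with the control virus (-0.085). It passed the floor through the control virus array only, so the split and the median depend in part on the filter. Kcnab1, Kcnip1, Kcnip4, Kcne1, Kcne3 and Kcne4 were below the floor.

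The genes of the A-type channel and its partners stood on both sides. The pore genes Kcnd2 and Kcnd3 were lower by about 0.1, and Kcnip3 differed by less than the scatter between probe sets. The peptidase-like partner proteins Dpp6 (242 with the HMGN1 virus and 221 with the control virus, 0.12) and Dpp10 (180 with the HMGN1 virus and 159 with the control virus, 0.16), which speed these channels, were higher, as was Kcnip2.

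**Figure D3:**
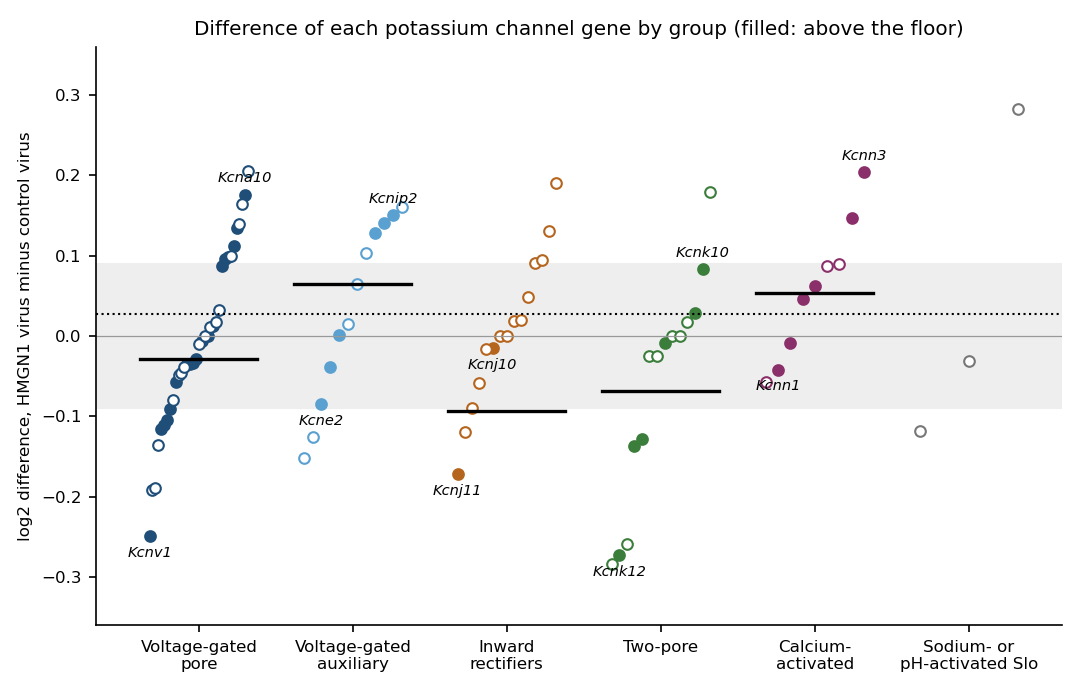
Log2 difference (HMGN1 virus minus control virus) of each of the 88 genes by channel group, filled where the gene was above the detection floor and open below it. Black bars are medians of detected genes, the dotted line is the median of all detected genes (0.027), the grey band is 1 SD between probe sets (0.0891), and the highest and lowest detected gene of each group are named.

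Inward rectifiers were mostly under the floor, with 2 of 15 genes detected. Both were lower, beside 38.4% of all detected genes, and only the difference of Kcnj11 exceeded the scatter between probe sets. Kcnj10, the main inward rectifier of astrocytes and oligodendrocytes, had 208 in the HMGN1 virus sample and 210 in the control virus sample, a difference of -0.015. In the same samples the 9 detected astrocyte markers had a median difference of 0.15 and went from -0.072 (Aldoc) to 0.58 (Gfap, 615 with the HMGN1 virus and 406 with the control virus). Of these, 7 were higher, and Fgfr3 (-0.048), Aldh1l1 (0.044), Slc1a2 (0.077) and Aldoc lay, like Kcnj10, within the scatter between probe sets. Kcnj16, the usual partner of Kcnj10, was below the floor at 57.3 with the HMGN1 virus and 48.2 with the control virus. Kcnj11, the pore of channels closed by ATP, had 95.4 in the HMGN1 virus sample and 109 in the control virus sample (-0.17). Its regulatory partner Abcc8 had a mean below the floor, from 90.0 with the HMGN1 virus and 78.0 with the control virus.

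The G protein-gated genes Kcnj3, Kcnj5, Kcnj6 and Kcnj9, which slow neurons when transmitter receptors are active, were all below the floor. The brightest of them, Kcnj3, had 85.8 in the HMGN1 virus sample and 77.0 in the control virus sample. Kcnj2, the classical inward rectifier of muscle and vessel cells, read 28.1 on both arrays. Kcnj8, a marker of pericytes, stood at 56.4 with the HMGN1 virus and 54.0 with the control virus, and its partner Abcc9 at 63.99 with the HMGN1 virus and 59.2 with the control virus, all below the floor. In bulk RNA, a change in the number of cells of one type cannot be told apart from a change of RNA per cell.

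The two-pore channels had 2 detected genes higher and 4 lower, beside 60.1% higher and 38.4% lower among all detected genes. The lower genes include Kcnk12, whose mean passed the floor through the control virus array only, so the split and the median follow in part from the filter. The median was -0.068, and turned to 0.029 over the 3 genes above the higher floor. Kcnk2 and Kcnk10, the close relatives TREK-1 and TREK-2 that respond to stretch, lipids and heat, stood on opposite sides. Kcnk2 had 244 in the HMGN1 virus sample and 270 in the control virus sample, a difference of -0.14. Kcnk10 had 462 with the HMGN1 virus and 436 with the control virus, a difference of 0.083. Only the difference of Kcnk2 exceeded the scatter between probe sets. Whether the pair differed from each other was not tested.

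Kcnk12, a subunit known as THIK-2 that gives little current alone, had 77.7 in the HMGN1 virus sample, under the floor, and 97.2 in the control virus sample, a difference of -0.27. Its mean passed the floor only through the control virus array, so its place as the lowest detected member follows in part from the filter. Among the 35 members above the floor on both arrays, Kcnv1 was lowest. The acid-sensitive channel gene Kcnk3 had 91.1 with the HMGN1 virus and 101 with the control virus (-0.13). Kcnk1, a leak channel of astrocytes, differed by -0.0083 and Kcnk15 by 0.029. Kcnk13, the resting channel of microglia, was below the floor (68.0 with the HMGN1 virus and 58.1 with the control virus), as were 6 of 8 microglia markers. Kcnk6 and Kcnk5, below the floor as well, had differences of -0.28 and -0.26.

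Calcium-activated channels had 4 detected genes higher and 2 lower, again near the 60.1% of all detected genes that were higher. Their median was 0.054, and 0.0047 with the trend of difference on gene span removed. The small-conductance channels, which are opened by calcium bound to calmodulin and shape the pause after a spike, gave the highest detected member of all. Kcnn3 had 350 in the HMGN1 virus sample and 302 in the control virus sample, a difference of 0.20 or 2.3 times the scatter between probe sets. Kcnn2 had 338 with the HMGN1 virus and 323 with the control virus (0.062) and Kcnn1 had 113 with the HMGN1 virus and 117 with the control virus (-0.042), both inside that scatter. Kcnn4, the intermediate-conductance channel of blood cells, was just below the floor.

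Of the large-conductance channel, the pore gene Kcnma1 had 107 in the HMGN1 virus sample and 108 in the control virus sample (-0.0084). A second, dim probe set of Kcnma1 (33.4 with the HMGN1 virus and 26.6 with the control virus) gave 0.21. The neuronal auxiliary gene Kcnmb4 had 129 with the HMGN1 virus and 115 with the control virus (0.15), and Kcnmb3 had 140 with the HMGN1 virus and 135 with the control virus (0.046). Kcnmb1, the smooth muscle subunit, and Kcnmb2 were below the floor. The noncoding neighbours Kcnmb4os1 and Kcnmb4os2 were below the floor too, with differences of 0.12 and -0.13, and Kcnd3os, detected, differed by -0.024. The related genes Kcnt1 (77.6 in the HMGN1 virus sample and 60.9 in the control virus sample, 0.28), Kcnt2 and Kcnu1 did not reach the floor.

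Across the 49 members below the floor, 23 were higher, 21 lower and 5 equal, with a median of 0 and differences from -0.28 to 0.28. Their SD was 0.12, and that of 1027 olfactory receptor genes, which serve as background, was 0.16. Differences of that size in undetected channel genes, Kcnt1 included, therefore could not be told from the scatter of dim probe sets.

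**Figure D4:**
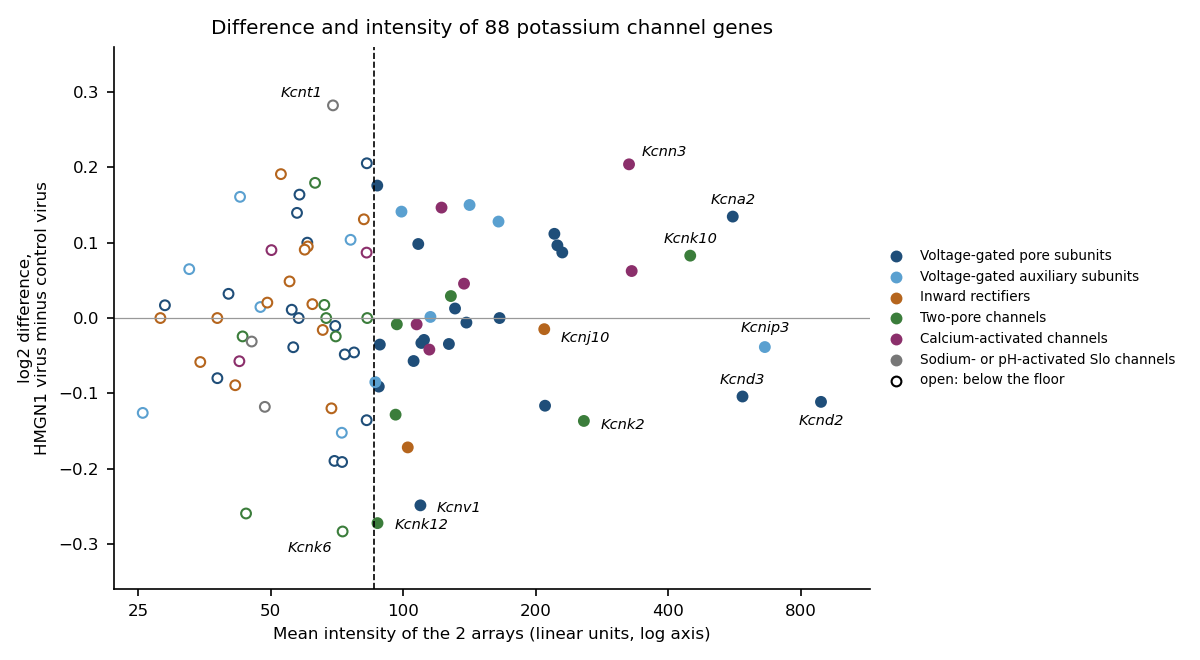
Log2 difference (HMGN1 virus minus control virus) against the mean intensity of the 2 arrays (log axis) for the 88 potassium channel genes, coloured by group, filled above the floor (dashed line, 85.95) and open below it. Among genes with an intensity over 200, Kcnn3 is highest (0.20) and Kcnk2 lowest (-0.14).

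Gene length was examined because, on this pair of arrays, long genes tended to be higher. Detected potassium channel genes spanned a median of 37.8 kb from annotated start to end, introns included, beside 23.9 kb for all detected genes. Detected genes were split by span into 4 bins of equal size. In the longest bin (59.3 kb and more), 7 of 16 channel genes were higher with a median of -0.0072, whereas 71.8% of all genes in that bin were higher with a median of 0.052. In the shortest bin 3 of 7 channel genes were higher, near the 44.4% of all genes in it. The middle bins had 2 of 5 higher (all genes 57.4%) and 5 of 11 higher (all genes 66.9%). With the trend of difference on gene span removed, the median of the 39 members was -0.056, against 0.00044 for all detected genes. After this removal Kcnd2 differed by -0.17, Kcnk2 by -0.19 and Kcnn3 by 0.15.

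**Figure D5:**
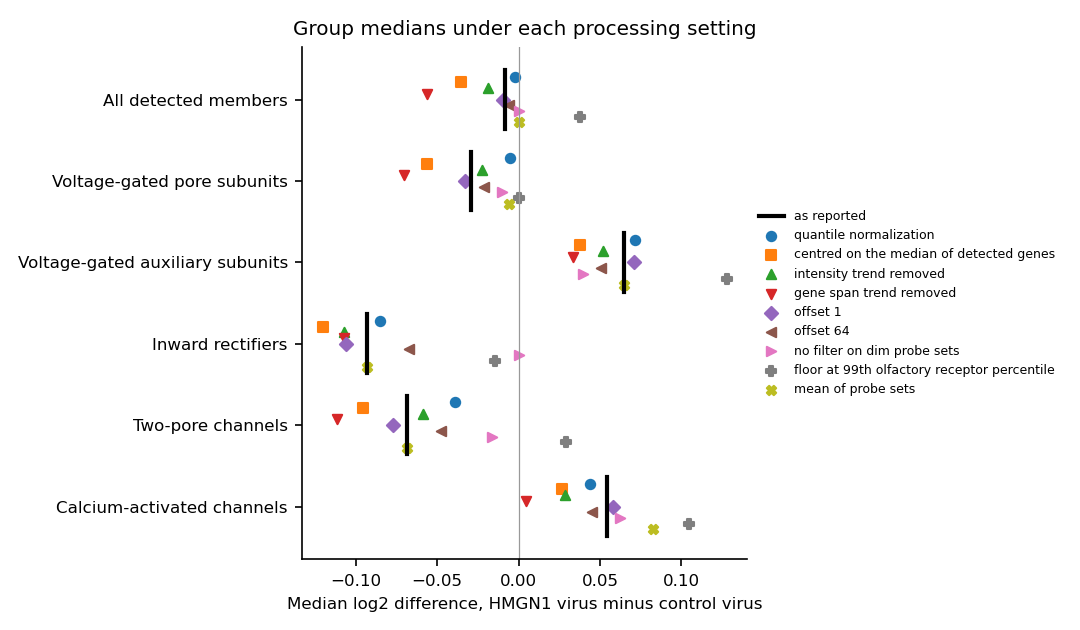
Median log2 difference (HMGN1 virus minus control virus) of all detected members and of 5 groups, as reported (black bar) and under 9 other processing settings (symbols). Auxiliary and calcium-activated medians stayed above 0 under each setting shown, whereas the medians of all members and of two-pore channels were above 0 under the higher floor.

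Lists of other ion transport genes were set beside the channels. Of 31 analysed genes of sodium, calcium and HCN channels, 16 were detected. Of these, 12 were higher and 4 lower, beside 60.1% of all detected genes higher. The higher genes include Scn3a (93.5 with the HMGN1 virus and 83.7 with the control virus), above the floor through the HMGN1 virus array only. The list median was 0.096, beside 0.027 for all detected genes. It was 0.042 with the span trend removed and 0.0067 over all 31 genes. The highest were Scn3b, an auxiliary sodium channel subunit (0.25), and Cacna1h, a low-voltage calcium channel (0.20), and the lowest were Cacna1a (-0.074), a transmitter release channel, and Hcn4 (-0.049), a pacemaker channel. Of 15 partner proteins of potassium channels, 9 were detected, 7 higher and 2 lower, beside 60.1% of all detected genes higher. Their median was 0.052, and -0.0017 with the span trend removed. Cntnap2, which gathers Kcna channels along axons, had 203 in the HMGN1 virus sample and 161 in the control virus sample (0.31), and Dpp10 followed. Dlg4, a scaffold that anchors them, had 437 with the HMGN1 virus and 474 with the control virus (-0.11), and Amigo1, an adhesion protein, differed by -0.026.

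Ion pumps and cotransporters gave a median of 0.0091 (-0.018 after centring on all detected genes). Of 10 detected genes, 5 were higher and 4 lower, beside 60.1% of all detected genes higher. Slc12a2, which loads young neurons and precursors with chloride and potassium, had 485 in the HMGN1 virus sample and 411 in the control virus sample (0.23). Slc12a5, which exports both from mature neurons, was near the floor at 93.2 with the HMGN1 virus and 91.8 with the control virus. The highest and lowest others were Fxyd7 (0.17), Fxyd6 (-0.092) and Atp1b2, a glial sodium pump subunit (-0.019). Fxyd7 had 97.4 with the HMGN1 virus and 85.0 with the control virus, and passed the floor through the HMGN1 virus array only.

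Markers fixed for the cell types of the culture are given beside these results. All 9 precursor markers, all 10 neuron markers, 9 of 10 astrocyte markers and all 9 analysed oligodendrocyte lineage markers were detected. Their summed intensity over detected genes was 23027 with the HMGN1 virus and 23218 with the control virus for precursors. It was 9523 with the HMGN1 virus and 9107 with the control virus for neurons, 5234 with the HMGN1 virus and 4791 with the control virus for astrocytes, and 7104 with the HMGN1 virus and 6892 with the control virus for the oligodendrocyte lineage. The markers higher numbered 4 of 9, 7 of 10, 7 of 9 and 6 of 9 in that order. Among all detected genes 60.1% were higher. The marker medians were -0.019, 0.11, 0.15 and 0.068, beside 0.027 for all detected genes. The sums follow the brightest markers, such as Fabp7 among precursors (10994.5 with the HMGN1 virus and 11137 with the control virus). Precursor markers went from -0.35 (Sox1) to 0.11 (Pax6) and neuron markers from -0.17 (Tubb3) to 0.27 (Syt1). Those of the oligodendrocyte lineage went from -0.16 (Olig2) to 0.46 (Enpp6). Endothelial (0 of 7) and erythroid (0 of 4) markers were not detected, and 2 of 8 microglia and 5 of 8 mesenchyme or pericyte markers were, at summed intensities of 225 and 661 with the HMGN1 virus and 230 and 681 with the control virus. The part of cell composition in the channel differences was not tested.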

How the data were processed

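RNA of neural precursor cells was measured on 2 arrays, 1 per virus. The deposited table holds summarised intensity values of 28944 probe sets on a linear scale. The authors' background correction, normalization and summary of these intensity values are not given in the sources used here. Median intensity was 98.8 with the HMGN1 virus and 101 with the control virus, and nothing further was normalized. Genes were named from GEO's platform annotation (21789 probe sets with 1 symbol), and all 88 members matched the RefSeq table of GRCm38.p6 by gene number, which gave gene span and order.

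Each gene took its brightest probe set by mean intensity. Differences used log2(intensity + 16), and with 1 array per virus there was no test. The number of arrays limits the precision, and depth does not apply. Members were taken by symbol and not by value, but the choice of rule, groups and lists was made with earlier results of these data known. Values are given for detected members that differed by at least 0.2, the brightest, highest and lowest of each group, genes fixed by name, and others named after their values were seen. Protein sequences were not used here. Alternatives were other normalization, trends, offsets, floors, probe set means and sizes. Code ran in Python 3.11.15 with pandas 2.3.3 and statsmodels 0.14.6 (lowess, span 0.3), and was tested on simulated data.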

Additional observations from a re-analysis of the deposited data

How the results depend on the processing

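No paired analysis was possible because each virus has 1 array, and for the same reason no replicate could be left out. The count of members higher by a log2 difference of 0.32, 0, became 1 at a size of 0.20, and the count lower, 0, became 2, by construction of the smaller size. Both counts stayed at 0 under the other settings run. The detected share of 44.3% became 25% with the floor at the 99th percentile of olfactory receptors and 100% without a floor, again by construction. The median of all members ran from -0.056 (gene span trend removed) to 0.037 (higher floor, 22 members), that of voltage-gated pore subunits from -0.070 to 0, that of their auxiliary subunits from 0.033 to 0.13 and that of calcium-activated channels from 0.0047 to 0.10. The inward rectifier median of -0.093, over 2 genes, became 0 over all 15 genes without a floor, and the two-pore median of -0.068 became 0.029 over 3 genes with the higher floor. The median of the other voltage-gated cation channels, 0.096, became 0.0067 over 31 genes without a floor. These 3 changes follow from the genes that enter. The partner protein list turned to -0.0017 with the span trend removed, and the pump and cotransporter list lay between -0.018 and 0.020. Of the named genes, Kcnma1 moved to 0.10 as the mean of its probe sets and Kcnt1 to 0.18 with an offset of 64. Signal over background limits most members, since 49 of 88 lie below the floor.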

Other observations

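Among neighbouring genes, 10 pairs of members lie next to each other in the RefSeq order of protein-coding genes. In 3 of the 10 pairs both genes were detected (Kcna3 with Kcna2, Kcna2 with Kcna10 and Kcna1 with Kcna6), in 2 only 1 was (Kcnj9 with Kcnj10 and Kcna5 with Kcna1), and in 5 neither was. As single genes, 44.3% of all 88 members were detected, a share that cannot be set against counts of pairs. Kcna2 and Kcna1 each occur in more than 1 pair, and pairs of other neighbouring genes were not counted. Kcna10 reached the floor on the HMGN1 virus array only, and Kcna1 on the control virus array only. The inward rectifiers Kcnj16 and Kcnj2, neighbours on chromosome 11, were both below the floor.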
